A study of Rattus norvegicus with 6 samples.

Results

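The 10 genes described here belong to Notch signalling and were measured in cultures of rat heart muscle cells. These are the receptors Notch1, Notch2 and Notch3, the ligands Jag1, Jag2 and Dll4, and the target genes Hes1, Hey1, Hey2 and Heyl. They were chosen by gene symbol, and all 10 were found among the 23096 genes of the deposited table. Notch receptors are cut after they bind a ligand on a neighbouring cell, and the freed intracellular part enters the nucleus, where it joins the DNA-binding protein RBPJ and a Mastermind coactivator to switch on genes. The HES and HEY proteins made from these genes are basic helix-loop-helix repressors. In the heart the pathway is known for signalling between endocardium and myocardium, for trabeculation and for the coating of vessels with mural cells, and HEY2 is known as a factor of the compact ventricular wall.

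The cultures were ventricular cardiomyocytes isolated from Wistar rat embryos at E18.5. All-trans retinoic acid (ATRA), the vitamin A derivative that activates the retinoic acid receptors, was given at 10 µM for 48 h to the treated group (3 libraries), and the vehicle group received the solvent DMSO for 48 h (3 libraries). Both groups were plated on laminin in a medium with fetal bovine serum and vitamin B12. The digest of the ventricles was depleted of fibroblasts by pre-plating only, so that other heart cells may remain, and whether separate isolations stand behind the libraries is not in the labels. The p-values therefore measure the spread between these libraries, which may be technical. The series title places the comparison in the study of retinoic acid, exit from the cell cycle and maturation of cardiomyocytes.

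Depth was 27497967 to 30368936 gene-assigned reads in the ATRA libraries and 25434878 to 32052035 in the vehicle libraries. The treatment was visible in Cyp26a1, which encodes an enzyme that degrades retinoic acid, with 42441 ± 432 normalised counts after ATRA and 44 ± 10.8 in vehicle (SD, n = 3 each). Rarb, a direct target of the retinoic acid receptors, averaged 1988 ± 27.4 normalised counts after ATRA and 203 ± 58 in vehicle (SD, n = 3 each). The ATRA libraries were more alike than the vehicle libraries: the coefficient of variation of the 9 tested Notch genes was 1.71% to 32.8% after ATRA and 8.55% to 38.5% in vehicle, and it was larger in vehicle for 9 of 9. The vehicle libraries formed a series in most of their marker lists of cell types, with replicates 1 and 3 at its ends. Summed fibroblast markers were 10657, 7962 and 4709 CPM (reads scaled to the library total) in vehicle replicates 1 to 3. Endothelial and epicardial markers fell in the same order, and cardiomyocyte markers rose (27978, 33469 and 37120 CPM). Smooth muscle and pericyte markers did not follow the series (3830, 4489 and 3647 CPM). In vehicle replicate 3 the fibroblast markers came to 50.6% of the mean of the other vehicle libraries. Its endothelial markers came to 57.0%, its epicardial markers to 60.6% and its cardiomyocyte markers to 121%.

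The receptors Notch1, Notch2 and Notch3 and the ligands Jag1 and Jag2 were lower after ATRA, while the target genes Hey2 and Hes1 were higher. Of the 10 genes, 9 passed the filter on low values, a normalised count (reads divided by the authors' size factor of the library) of at least 10 in at least 3 libraries. Of these 9, 2 were higher (Hey2 and Hes1), 5 were lower (Notch1, Notch3, Jag1, Jag2 and Notch2) and 2 were not called (Hey1 and Heyl), at an adjusted p under 0.05 from limma over all genes tested. The background is high: 39.3% of all 13110 genes tested were called, 20.3% higher and 18.9% lower. Hey1 passed the filter through the vehicle libraries alone, and Dll4 did not pass it. On the recovered reads edgeR called 2 of the 9 higher and 5 lower (39.2% of all genes tested), and DESeq2 2 higher and 4 lower (38.2% of all). With no filter all 10 were tested, with 2 higher and 4 lower (28.1% of all). The median log2 fold change was -0.58 over the 9 genes and 0.004 over all genes tested. Without vehicle replicate 3, 3 were higher and 5 lower. The count of lower genes was 3 without vehicle replicate 1 or 2, 2 without ATRA replicate 1, and 1 without ATRA replicate 2 or 3. Over all genes the share called lower moved too: it was 17.3% without vehicle replicate 1, 14.2% without vehicle replicate 2, 24.1% without vehicle replicate 3 and 12.5% to 12.6% without an ATRA library, against 18.9% with all libraries. The count of higher genes was 2 in each of these 5 fits. Without vehicle replicate 3 the log2 fold change was -1.43 for Notch1, -0.32 for Notch2, -0.91 for Notch3, -0.54 for Jag2 and 0.61 for Hes1, all still called, and -1.14 for Hey1 (adjusted p = 0.055). Leaving out vehicle replicate 1 gave -1.24 for Notch1, -0.20 for Notch2, -0.59 for Notch3 and 0.49 for Hes1, all still called. In that fit Jag1 (-0.63, limma adjusted p = 0.084), Jag2 (-0.53, 0.070) and Hey1 (-0.75, 0.21) were not called. The libraries of both groups did not overlap for 8 of the 9 genes, against 53.8% of all genes tested. For Hey1, 1 of these 8, the filter itself fixed this, because only its vehicle libraries reached 10. In such bulk samples fewer cells of a type and less RNA per cell cannot be told apart.

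**Figure D1:**
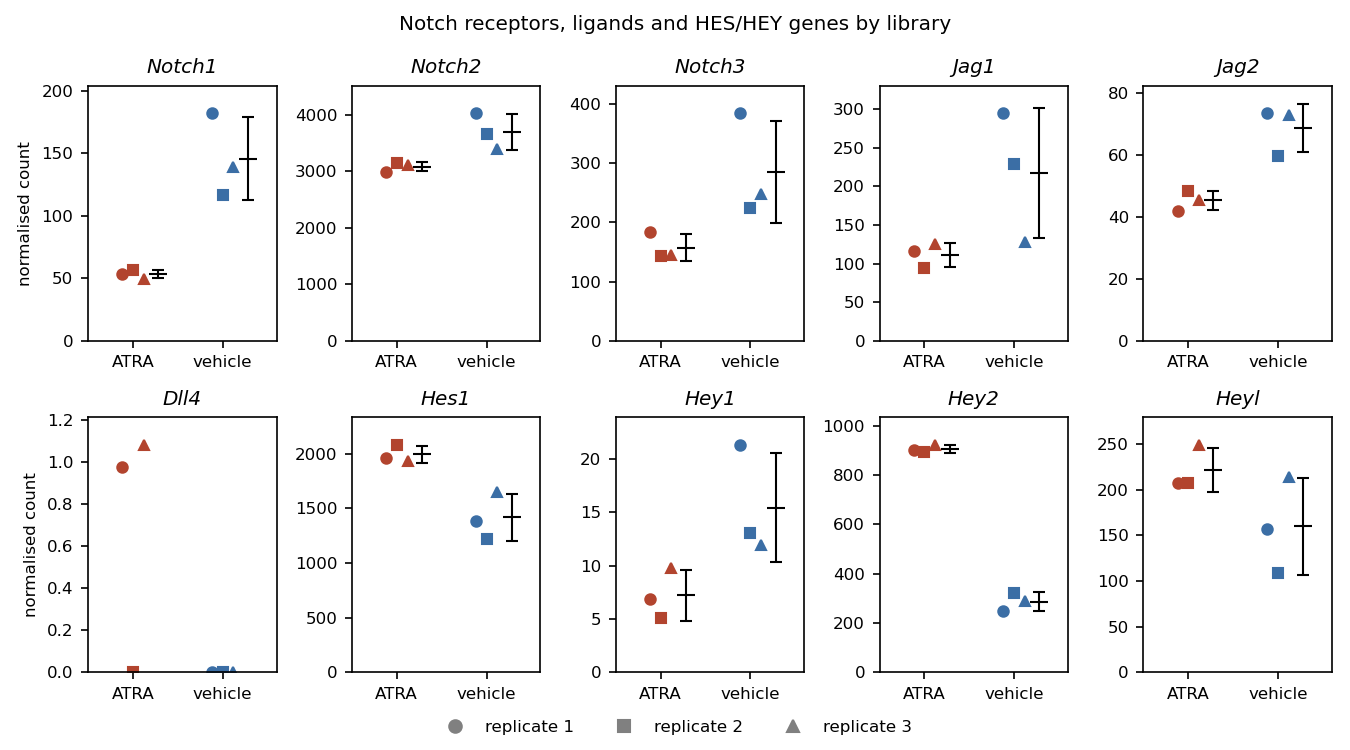
Normalised count of each of the 10 genes (vertical axes, linear from 0) in the 3 ATRA and the 3 vehicle libraries; symbols mark the replicate number, and black bars the mean and SD of the 3 libraries (not drawn for Dll4). The 3 ATRA libraries of Hey2 lie between 892 and 923, all above the vehicle libraries at 249 to 322, and the 3 ATRA libraries of Notch1 lie between 49.9 and 56.6, all below the vehicle libraries at 116 to 182.

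Notch2 was the receptor with by far the highest level, and Notch1 the receptor with the largest fall. FPKM, which the authors divided by gene length, allows levels to be compared between genes. Notch2 had 8.89 ± 0.232 FPKM after ATRA and 10.7 ± 0.912 FPKM in vehicle (SD, n = 3 each). Notch3, a receptor best known from vascular smooth muscle and pericytes, had 0.732 ± 0.106 FPKM after ATRA and 1.33 ± 0.403 FPKM in vehicle. Notch1, the receptor of endocardium and endothelium that also acts in immature cardiomyocytes, had 0.193 ± 0.0123 FPKM after ATRA and 0.527 ± 0.12 FPKM in vehicle.

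Notch1 (ENSRNOG00000019322) had 53.9, 56.6 and 49.9 normalised counts in ATRA replicates 1 to 3, against 182, 116 and 139 in vehicle replicates 1 to 3. The lowest vehicle library was 2.05 times the highest ATRA library. Its log2 fold change was -1.41 ± 0.19 (SE), or 2.65-fold lower, with adjusted p = 0.00093, and the call held in all 17 alternative fits (log2 fold change -1.56 to -1.24). The receptor was read from 46 to 56 reads per ATRA library and 128 to 188 per vehicle library.

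Notch3 (ENSRNOG00000004346) had 183, 143 and 145 normalised counts in ATRA replicates 1 to 3, against 384, 224 and 248 in vehicle replicates 1 to 3. The groups did not overlap, and vehicle replicate 1 was far above the other libraries. It fell 1.77-fold (-0.83 ± 0.21, adjusted p = 0.016). Leaving out ATRA replicate 2 or ATRA replicate 3 ended the call (adjusted p = 0.064 each), and the log2 fold change was -0.59 without vehicle replicate 1, where the call held (adjusted p = 0.015).

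Notch2 (ENSRNOG00000018835) had 2990.3, 3143 and 3110.1 normalised counts in ATRA replicates 1 to 3, against 4027 in vehicle replicate 1, 3664 in vehicle replicate 2 and 3397 in vehicle replicate 3. All 3 ATRA libraries lay below all 3 vehicle libraries, although the nearest ones differed by a factor of 1.08 only. The fall was 1.2-fold (-0.26 ± 0.07, adjusted p = 0.018). It was not called without ATRA replicate 1 (adjusted p = 0.078), ATRA replicate 2 (0.054), ATRA replicate 3 (0.062) or vehicle replicate 2 (0.0504).

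Because Notch1 and Notch3 fell more than Notch2, the makeup of the receptor transcripts shifted towards Notch2. Notch2 took 89.2%, 91.3% and 91.3% of the summed FPKM of the 3 receptors in the ATRA libraries, against 82.6%, 87.8% and 85.5% in the vehicle libraries. The difference of the means was 5.25 percentage points (two-sided exact permutation p = 0.1, the smallest that 3 against 3 libraries allow). It was 5.35 without vehicle replicate 3, and 3.89 to 6.51 with each library left out in turn. Notch1 took 1.97% ± 0.119 of it after ATRA and 4.18% ± 0.616 in vehicle (SD, n = 3 each; exact permutation p = 0.1). The share of Notch3 overlapped between the groups (7.47% ± 1.18 after ATRA and 10.5% ± 2.06 in vehicle; exact permutation p = 0.2). Notch4, the receptor of endothelium, was low but above the filter in every library, with 19.2 to 20.6 normalised counts after ATRA and 23.4 to 27.1 in vehicle. It was not called (-0.35 ± 0.22, adjusted p = 0.24).

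Jag1 and Jag2, transmembrane ligands of the Serrate type, were the only ligands among the 10 genes with more than single reads. Jag1 (ENSRNOG00000007443) had 116, 94 and 125 normalised counts in ATRA replicates 1 to 3, against 294, 229 and 128 in vehicle replicates 1 to 3. Vehicle replicate 3 lay next to the ATRA libraries, at 1.03 times the highest of them. With all libraries Jag1 was 1.85-fold lower (-0.89 ± 0.28, adjusted p = 0.039), and without vehicle replicate 3 the log2 fold change was -1.22 (adjusted p = 0.00038). The call was lost when any other library was left out (adjusted p = 0.078 to 0.13).

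Jag2 (ENSRNOG00000013927) had 42.1, 48.5 and 45.5 normalised counts in ATRA replicates 1 to 3, against 73.6, 59.9 and 72.9 in vehicle replicates 1 to 3. The groups did not overlap. Jag2 was 1.5-fold lower (-0.58 ± 0.17, adjusted p = 0.028), but 8 of 17 alternatives ended the call, among them DESeq2 on the recovered reads (adjusted p = 0.059), no filter (0.056) and array weights (0.056). With the replicate number as a block its adjusted p was 0.068. In the authors' deposited table Jag2 had a log2 fold change of -0.60 with adjusted p = 0.0709.

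Dll4 (ENSRNOG00000014011), the Delta-type ligand of arterial endothelium and endocardium, had 1, 0 and 1 reads in ATRA replicates 1 to 3 and 0 reads in each vehicle library. A count of 0 allows up to 3 reads, or 0.0936 to 0.118 CPM (reads scaled to the library total), in a vehicle library, so no difference was detectable at this depth. Dll1, another Delta-type ligand and not among the 10 genes, had 3 reads over the ATRA libraries and 4 over the vehicle libraries. Jag1 took 69.5% ± 3.9 of the summed ligand FPKM after ATRA and 73.5% ± 9.33 in vehicle (SD, n = 3 each; exact permutation p = 0.6), and vehicle replicate 3, at 62.8%, was the lowest of the 6 libraries. The difference of the means was -4.07 percentage points, and -9.45 without vehicle replicate 3, where the vehicle libraries at 79.3% and 78.6% lay above the ATRA libraries at 65.0% to 71.7%.

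Of the target genes, Hey2 rose 3.16-fold and Hes1 1.41-fold. Hey1 and Heyl did not pass the test, although the estimate of Heyl, 1.43-fold, was as large as that of Hes1. Hes1 was the gene of the 10 with the highest level in both groups, with 47.9 ± 1.88 FPKM after ATRA and 34.1 ± 5.16 FPKM in vehicle. Hey2 had 12.8 ± 0.22 FPKM after ATRA and 4.08 ± 0.522 FPKM in vehicle (SD, n = 3 each). Heyl had 1.63 ± 0.178 FPKM after ATRA and 1.18 ± 0.39 FPKM in vehicle, and Hey1 0.074 ± 0.0243 FPKM after ATRA and 0.158 ± 0.0523 FPKM in vehicle.

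The starts of Hes1 and Hey2, the target genes that rose, are shown with those of Heyl, which was not called, and Notch1, which fell. The windows hold 250 bases before and 50 after the start of each gene and come from RefSeq for the build GRCr8, written 5′ to 3′ on the strand of the gene. Capitals mark the core of the RBPJ motif, TGGGAA, read on either strand. The windows are chr11:84212996-84213295 (minus strand) for Hes1, chr1:28640850-28641149 (plus strand) for Hey2, chr5:140793021-140793320 (plus strand) for Heyl and chr3:29721564-29721863 (minus strand) for Notch1.
Hes1: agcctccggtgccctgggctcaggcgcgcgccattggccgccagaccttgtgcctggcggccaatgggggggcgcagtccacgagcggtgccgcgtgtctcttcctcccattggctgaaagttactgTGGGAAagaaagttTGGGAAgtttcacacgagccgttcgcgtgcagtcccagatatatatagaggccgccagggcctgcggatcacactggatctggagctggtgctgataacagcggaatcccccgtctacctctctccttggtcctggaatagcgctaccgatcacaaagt
Hey2: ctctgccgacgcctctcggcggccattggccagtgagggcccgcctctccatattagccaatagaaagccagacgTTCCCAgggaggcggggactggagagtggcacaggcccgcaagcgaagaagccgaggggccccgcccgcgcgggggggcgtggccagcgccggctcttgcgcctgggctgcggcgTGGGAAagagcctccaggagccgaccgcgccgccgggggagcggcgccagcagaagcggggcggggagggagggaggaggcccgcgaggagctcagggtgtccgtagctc
Heyl: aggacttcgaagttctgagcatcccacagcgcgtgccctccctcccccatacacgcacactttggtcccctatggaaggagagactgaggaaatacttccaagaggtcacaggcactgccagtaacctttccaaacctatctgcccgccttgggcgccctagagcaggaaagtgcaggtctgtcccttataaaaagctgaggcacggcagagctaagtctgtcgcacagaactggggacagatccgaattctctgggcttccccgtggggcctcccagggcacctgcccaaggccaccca
Notch1: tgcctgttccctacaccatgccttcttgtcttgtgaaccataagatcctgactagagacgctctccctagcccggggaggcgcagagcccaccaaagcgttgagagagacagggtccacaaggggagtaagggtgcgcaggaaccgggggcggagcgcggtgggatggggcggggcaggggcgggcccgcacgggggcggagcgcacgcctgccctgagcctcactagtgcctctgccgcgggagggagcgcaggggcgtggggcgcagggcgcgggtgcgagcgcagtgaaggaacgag

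The Hes1 window held the RBPJ core at 2 places, which begin 123 and 109 bases before the start, both on the strand of the gene. The Hey2 window also held 2, which begin 175 bases before the start on the opposite strand and 60 bases before it on the strand of the gene. Of all 33469 promoter windows of the same length, 25.7% held the core at least once and 3.85% at least 2 times. Of the 8 Notch genes with a window, Notch3 held 1 core and Notch1, Notch2, Jag1, Jag2 and Heyl none. The HES and HEY recognition motif CACGNG, also searched on both strands and not overlapping the RBPJ core in these windows, occurred 4 times in the Hes1 window, 3 times in that of Notch2, 2 times each in those of Jag1 and Heyl, 1 time each in those of Notch1 and Jag2, and not in those of Hey2 and Notch3. That is 6 of 8 genes, which had 9 windows, as Jag2 had another window without the motif. Over all promoters the share, 26.1%, counts windows and not genes. Retinoic acid direct repeats, built from the half-site AGGTCA or its variants AGTTCA and also GGGTCA and also GGTTCA, as pairs spaced by 1, 2 or 5 bases, were found in no window of the Notch genes, and in 0.233%, 0.17% and 0.382% of all windows. Such matches describe the letters in these windows and no more. Hey1 and Dll4 had no window.

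Hey2 (ENSRNOG00000013364) had 903, 892 and 923 normalised counts in ATRA replicates 1 to 3, against 249, 322 and 291 in vehicle replicates 1 to 3. The lowest ATRA library was 2.77 times the highest vehicle library. The log2 fold change was 1.66 ± 0.1 (SE), a 3.16-fold rise with a 95% interval of 2.69 to 3.71, and adjusted p was 2.2e-05. It was called in all 17 alternatives, with log2 fold changes of 1.55 to 1.75. Vehicle replicate 3 was the middle vehicle library for Hey2, and the log2 fold change without it was 1.67.

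Hes1 (ENSRNOG00000001720) had 1966, 2083 and 1934 normalised counts in ATRA replicates 1 to 3, against 1388, 1223 and 1649 in vehicle replicates 1 to 3. The groups did not overlap, and the lowest ATRA library was 1.17 times the highest vehicle library. Hes1 rose 1.41-fold (0.5 ± 0.1, adjusted p = 0.0067). This call too held in all 17 alternatives (log2 fold change 0.39 to 0.61), with the lowest value from scaling by total reads only.

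Heyl (ENSRNOG00000015318), a family member best known from vascular smooth muscle, had 208, 207 and 249 normalised counts in ATRA replicates 1 to 3, against 157, 109 and 214 in vehicle replicates 1 to 3. Vehicle replicate 3 lay within the ATRA range. Heyl was not called (0.52 ± 0.23, 95% interval -0.01 to 1.05, adjusted p = 0.11). Leaving out vehicle replicate 3 made it a called gene (0.75, adjusted p = 0.0061), as did weighting the libraries by their quality (0.0081), and without vehicle replicate 2 the log2 fold change was 0.27.

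Hey1 (ENSRNOG00000062882), the family member most typical of endothelium and atrial muscle, was close to the limit of detection. It had 7, 5 and 9 reads in ATRA replicates 1 to 3, against 22, 15 and 11 reads in vehicle replicates 1 to 3. The groups did not overlap, which the filter fixed in advance for a gene that passed it through the vehicle libraries alone. Hey1 was not called (-0.99 ± 0.38, adjusted p = 0.069). The summed CPM were in the ratio 0.43 of ATRA to vehicle, with an exact 95% counting interval of 0.245 to 0.732 that covers counting error only. With total reads alone as the scaling Hey1 was called (adjusted p = 0.048).

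**Figure D2:**
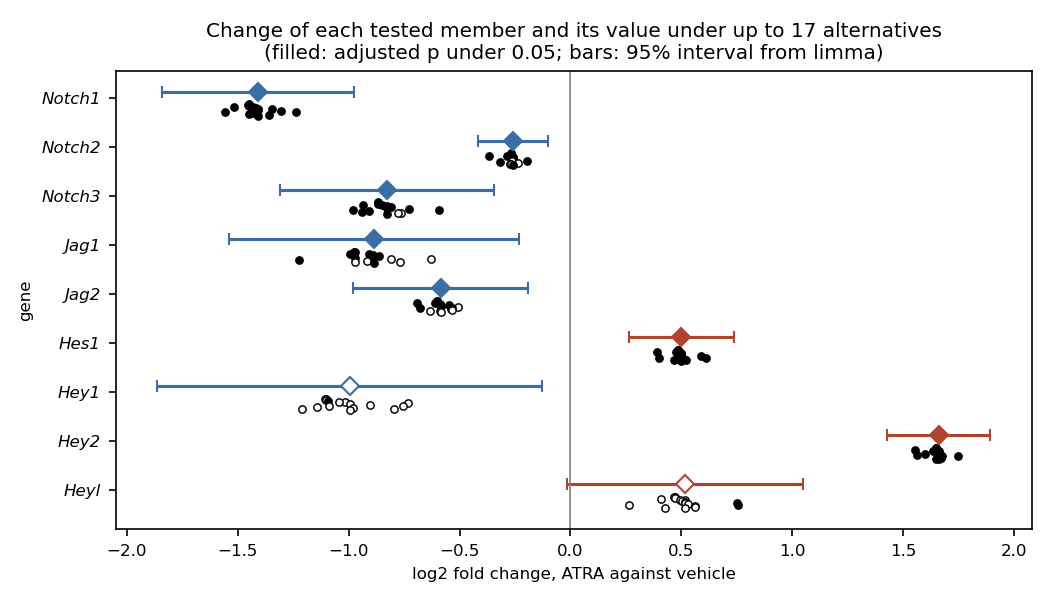
Log2 fold change of ATRA against vehicle for the 9 tested genes. Diamonds and bars give the limma estimate with its 95% interval, circles the value under each alternative, and filled symbols an adjusted p under 0.05. Hey2, Hes1 and Notch1 are filled throughout, while Jag2, Jag1, Notch2 and Notch3 have open circles among their alternatives.

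The makeup of the target transcripts shifted towards Hey2. Hey2 took 20.8%, 19.7% and 21.3% of the summed FPKM of the 4 target genes in the ATRA libraries, against 9.22%, 13.1% and 9.09% in the vehicle libraries. The difference was 10.1 percentage points, and 9.42 without vehicle replicate 3 (two-sided exact permutation p = 0.1, again the smallest possible). Hes1 took 76.7% ± 1.15 after ATRA and 86.2% ± 1.7 in vehicle (SD, n = 3 each; exact permutation p = 0.1), although its own level rose. In the order of FPKM levels Hes1 led in both groups. Hey2 came next after ATRA, ahead of Notch2, while Notch2 came before Hey2 in vehicle, and in neither group did the libraries of these genes overlap. Notch3 was above Jag1 in 2 of 3 ATRA libraries and 1 of 3 vehicle libraries, and Jag1 above Heyl in 2 of 3 vehicle libraries, so that these had no fixed order there. Notch1 was below Jag2 in 3 of 3 ATRA libraries and above it in 3 of 3 vehicle libraries, although their ranges overlapped in vehicle.

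**Figure D3:**
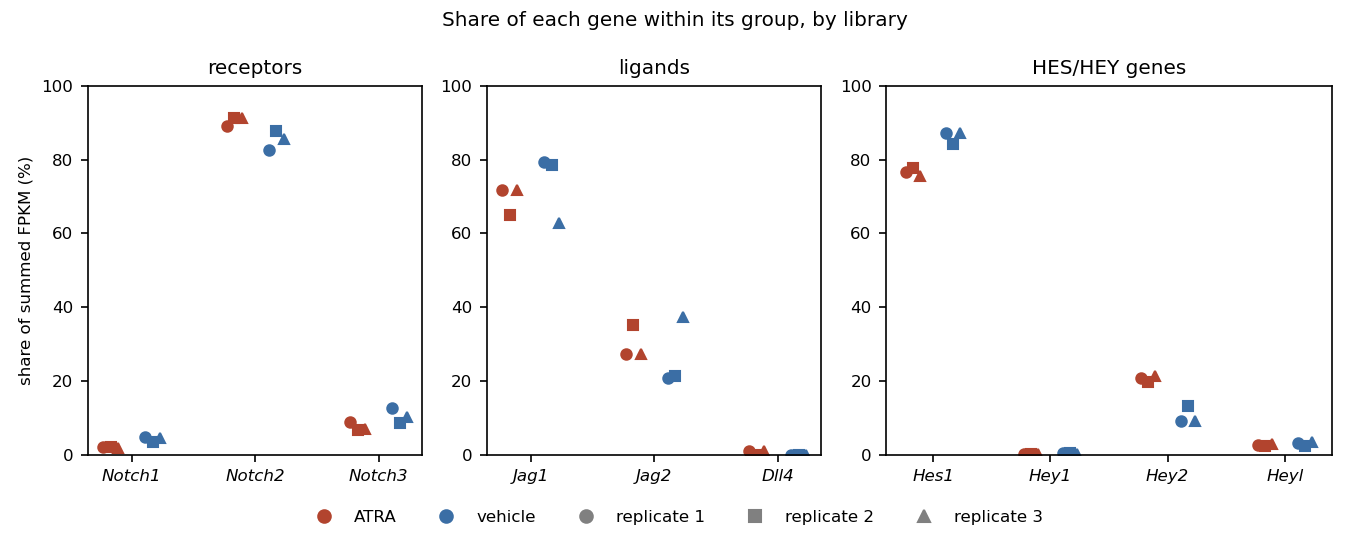
Share of each gene in the summed FPKM of its group (vertical axes, percent) in the ATRA libraries (left of each gene) and the vehicle libraries (right of it); symbols mark the replicate number. Notch2 makes up 89.2% to 91.3% of receptor FPKM after ATRA and 82.6% to 87.8% in vehicle, and the share of Hey2 is 19.7% to 21.3% after ATRA and 9.09% to 13.1% in vehicle.

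Marker transcripts of other cell types differed between the same libraries. The counts of called markers in each list stand against 20.3% higher and 18.9% lower among all genes tested. The summed endothelial markers were 99.6 to 107 CPM after ATRA and 127 to 255 CPM in vehicle, with 6 of 12 tested markers lower, 1 higher and 5 not called. Pecam1 (-0.52 ± 0.31, adjusted p = 0.22) was not called, and Cdh5 had 45.5 to 53.6 normalised counts after ATRA and 17.4 to 113 in vehicle (-0.0031 ± 0.58, adjusted p = 0.997), or -0.38 with edgeR and -0.37 with DESeq2, neither called. Without vehicle replicate 3 both were called lower, Pecam1 at -0.83 (adjusted p = 0.025) and Cdh5 at -0.74 (0.038). Without vehicle replicate 1 neither was called, with Pecam1 at -0.22 and Cdh5 at 0.57. The summed fibroblast markers were 4094 to 4305 CPM after ATRA and 4709 to 10657 CPM in vehicle, with 6 of 14 lower and 2 higher. Among them Col1a1 was lower (-0.73 ± 0.25, adjusted p = 0.048), a call that held in 12 of 17 alternatives, and Col1a2 was not called (-0.64 ± 0.25, adjusted p = 0.077). Without vehicle replicate 3 Col1a2 was called lower (-0.96, adjusted p = 6.6e-05), and without vehicle replicate 1 it was not (-0.38, adjusted p = 0.15).

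Epicardial markers summed to 33.6 to 36.8 CPM after ATRA and 55 to 99.7 CPM in vehicle, with 6 of 8 lower, among them Wt1 (-1.19 ± 0.28) and Upk3b (-1.6 ± 0.33). Smooth muscle and pericyte markers summed to 7554 to 7822 CPM after ATRA and 3647 to 4489 CPM in vehicle, with 5 of 10 higher, among them Myh11 (0.62 ± 0.13) and Cnn1 (1.06 ± 0.33), and 3 lower. The median log2 fold change of the 10 tested markers was 0.28, so the higher sum was not shared evenly by the list. The call of Cnn1 held in 10 of 17 alternatives and was lost with edgeR (adjusted p = 0.069) and DESeq2 (0.14), and its log2 fold change was 0.69 with array weights. Of that list Rgs5, Vtn and Ndufa4l2, which mark pericytes, had at most 2 reads in any library. Cardiomyocyte markers summed to 43998 to 44947 CPM after ATRA and 27978 to 37120 CPM in vehicle, with 5 of 11 higher, among them Tnnt2 (0.39 ± 0.11) and Myh6 (1.49 ± 0.16), and Myh7 lower. The call of Tnnt2 held in 11 of 17 alternatives.

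Immune markers summed to 9.6 to 13.5 CPM after ATRA and 4.54 to 5.78 CPM in vehicle, with 1 of 3 tested markers higher. The higher sum was not shared by the list: the median log2 fold change of the 3 tested markers was -0.07. Of the 10 immune markers, 5 had at most 3 reads in any library. The 2 written first were scarce: Ptprc had at most 4 reads in a library, and Cd68 was not called (-0.96 ± 0.37, adjusted p = 0.074). Nerve and Schwann cell markers summed to 8.17 to 9.82 CPM after ATRA and 18.6 to 32.4 CPM in vehicle, with 2 of 3 lower and 1 not called, and Sox10 had at most 2 reads in a library. The part of these cells in the changes of Notch1, Notch3, Jag1, Jag2 and the HES and HEY genes was not tested.

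**Figure D4:**
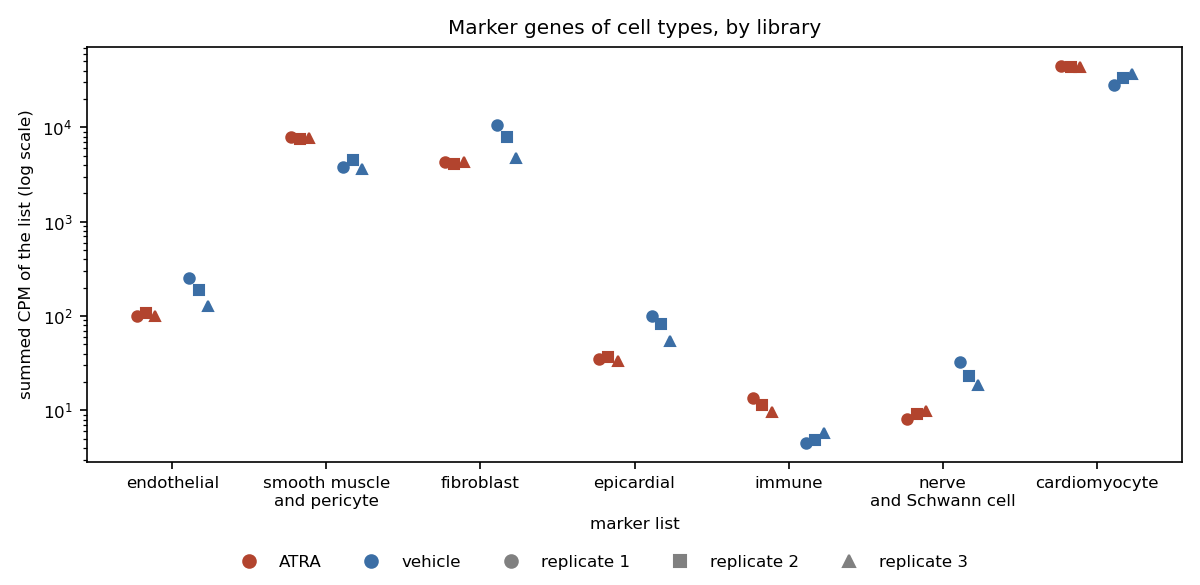
Summed CPM (log axis) of each marker list in the ATRA libraries (left) and the vehicle libraries (right); symbols mark the replicate number. Fibroblast, endothelial, epicardial and nerve markers were lower in each ATRA library than in each vehicle library, and vehicle replicate 3 was the lowest vehicle library for these lists.

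The wider pathway was sampled with 94 further genes, of which 81 were tested. Of these, 12 were higher, 30 lower and 39 not called. Their log2 fold changes had a median of -0.13. Higher genes made up 14.8% of them, against 20.3% of all genes tested, and lower genes 37.0%, against 18.9% of all. The lower genes were unevenly spread: 14 of the 30 came from 1 list, the 16 tested genes reported elsewhere as Notch targets. Each of the other lists held 1 to 4 lower genes, of 4 to 14 tested, so the 37.0% does not describe the pathway evenly. Dlk1 alone passed the filter through libraries of 1 group, vehicle, in which it was high. The number of higher genes was 5 to 7 without vehicle replicate 2 or any ATRA library, 7 with total reads alone as the scaling and 15 without vehicle replicate 3. The number of lower genes was 25 to 37 when each library was left out in turn. Over all genes tested the counts moved too. With each library left out in turn they were 1715 to 3404 higher and 1645 to 3161 lower. With total reads alone as the scaling 1765 were higher. With all libraries 2667 were higher and 2483 lower, so these moves are not particular to the pathway genes.

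Among the other ligands and receptor partners, 3 of 6 tested genes fell, against 18.9% of all genes tested. Of these 3, Dlk1 passed the filter through the vehicle libraries alone. Dner, a transmembrane protein reported as a Notch ligand in the brain, had 66.7 ± 9 normalised counts after ATRA and 203 ± 63 in vehicle (SD, n = 3 each; -1.55 ± 0.23, adjusted p = 0.0016). Egfl7, a secreted endothelial protein that can antagonise Notch, was 2.25-fold lower (-1.17 ± 0.24). Dlk1, a non-canonical ligand of the Delta family, had 7 reads over the ATRA libraries and 84 over the vehicle libraries.

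Most genes of receptor cleavage were not called. Adam10, which makes the first ligand-dependent cut, averaged 3416 ± 146 normalised counts after ATRA and 3404 ± 78 in vehicle (SD, n = 3 each). It was not called (adjusted p = 0.95), and with total reads alone as the scaling its log2 fold change was below 0 (-0.10). Psenen (0.38 ± 0.07, adjusted p = 0.0035) and Aph1b (1.03 ± 0.34, adjusted p = 0.043), which encode subunits of gamma-secretase, were higher. Tspan5, a tetraspanin that escorts ADAM10 to the cell surface, fell 3.78-fold, with 131, 149 and 151 normalised counts in the ATRA libraries and 815, 544 and 362 in the vehicle libraries (-1.92 ± 0.26, adjusted p = 0.00096). Of 12 tested genes of this list 2 were higher, 1 lower and 9 not called, against 20.3% higher and 18.9% lower over all genes tested. A majority of uncalled genes is thus not particular to this list. The call of Aph1b held in 7 of its 16 alternatives.

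Lfng had the largest fall of the glycosylation and endocytosis list. It encodes lunatic fringe, a glycosyltransferase that adds a sugar to Notch and so biases it between Delta and Jagged ligands. Lfng had 14.7, 17.2 and 17.3 normalised counts in ATRA replicates 1 to 3, against 156, 109 and 77.2 in vehicle replicates 1 to 3. It was 6.37-fold lower (-2.67 ± 0.27, adjusted p = 0.00028), in all 17 alternatives. Rfng, the gene of radical fringe, was higher by a small amount (0.23 ± 0.07, adjusted p = 0.029), a call that held in 12 of 17 alternatives. Of 9 tested genes of the list 1 was higher, 1 lower and 7 not called, against 20.3% higher and 18.9% lower over all genes tested.

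Rbpj and 2 Mastermind genes of the nuclear complex fell. Rbpj, the DNA-binding subunit, averaged 1192 ± 63.9 normalised counts after ATRA and 1521 ± 132 in vehicle (SD, n = 3 each), 1.27-fold lower (-0.35 ± 0.08, adjusted p = 0.0094). The Mastermind coactivator genes Maml1 (-0.48 ± 0.07, adjusted p = 0.0015) and Maml3 (-0.79 ± 0.1, adjusted p = 0.00082) were lower too. These falls of Rbpj, Maml1 and Maml3 held in all 17 alternatives. The acetyltransferase genes Kat2b (0.38 ± 0.09, adjusted p = 0.014) and Crebbp (0.18 ± 0.06, adjusted p = 0.046) were higher. The call of Crebbp held in 5 of 17 alternatives and that of Kat2b in 14. In all, 2 of 10 tested genes of the complex were higher, 4 lower and 4 not called, against 20.3% higher and 18.9% lower over all genes.

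Of 14 tested corepressor genes, 3 were higher, 4 lower and 7 not called. Over all genes tested 20.3% were higher and 18.9% lower, so genes moving both ways are not particular to this list. L3mbtl3, a partner of RBPJ at repressed genes, rose 1.62-fold (0.69 ± 0.08, adjusted p = 0.00038), and Tle2 (0.6 ± 0.17) and Ctbp1 (0.15 ± 0.05) were also higher. TLE proteins are the Groucho corepressors that HES factors recruit. Tle4 (-0.6 ± 0.08, adjusted p = 0.00074), Tle3 (-1.36 ± 0.21, adjusted p = 0.0018) and Ctbp2 (-0.25 ± 0.06, adjusted p = 0.015) were lower. The call of Ctbp1 held in 7 of 17 alternatives, and those of Tle2 and Ctbp2 in 14 each.

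Of 10 tested inhibitors and turnover genes, 2 were higher, 2 lower and 6 not called, near the shares over all genes tested (20.3% higher, 18.9% lower). Numbl, a relative of the endocytic Notch inhibitor Numb, fell 2.12-fold (-1.08 ± 0.13, adjusted p = 0.00055), and Dtx4, a ubiquitin ligase of the Deltex family, 2.49-fold (-1.32 ± 0.2, adjusted p = 0.002). Numb itself was not called (-0.13 ± 0.07, adjusted p = 0.2). The ubiquitin ligase genes Itch (0.28 ± 0.06, adjusted p = 0.0071) and Dtx3 (0.28 ± 0.08, adjusted p = 0.02) were higher, and the call of Dtx3 held in 13 of 17 alternatives. Nrarp, a feedback inhibitor and sensitive target of Notch, was not tested, with 12 reads over the ATRA libraries and 22 over the vehicle libraries.

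Of 4 tested further HES genes and relatives, 2 were higher, 1 lower and 1 not called, against 20.3% higher and 18.9% lower over all genes. Hes2, Hes3 and Helt had no reads, and Hes5 had at most 4 in a library. Hes6, which can antagonise HES1, rose 1.37-fold (0.46 ± 0.07, adjusted p = 0.0014). Bhlhe40 rose (0.45 ± 0.05, adjusted p = 0.00036) and its close relative Bhlhe41 fell 2.77-fold, with 315, 285 and 292 normalised counts in the ATRA libraries and 847, 832 and 790 in the vehicle libraries (-1.47 ± 0.07, adjusted p = 1e-05). Both encode repressors of the circadian clock.

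Of 16 tested genes reported elsewhere as Notch targets, 14 were lower, 2 not called and none higher, at a background of 18.9% of all genes tested being lower. Many of them respond to other signals as well. The 3 with the smallest p were the growth regulator Myc (-1.23 ± 0.1, adjusted p = 0.00011), the transcription factor gene Sox9 (-2.27 ± 0.2, adjusted p = 0.00014) and the ligand gene Bmp2 (-1.15 ± 0.13, adjusted p = 0.00046). Sox9 had 86.2, 95 and 99.7 normalised counts in the ATRA libraries and 564, 516 and 326 in the vehicle libraries. The list includes Pdgfrb, which also stands in the pericyte marker list, as Egfl7 does in the endothelial one.

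**Figure D5:**
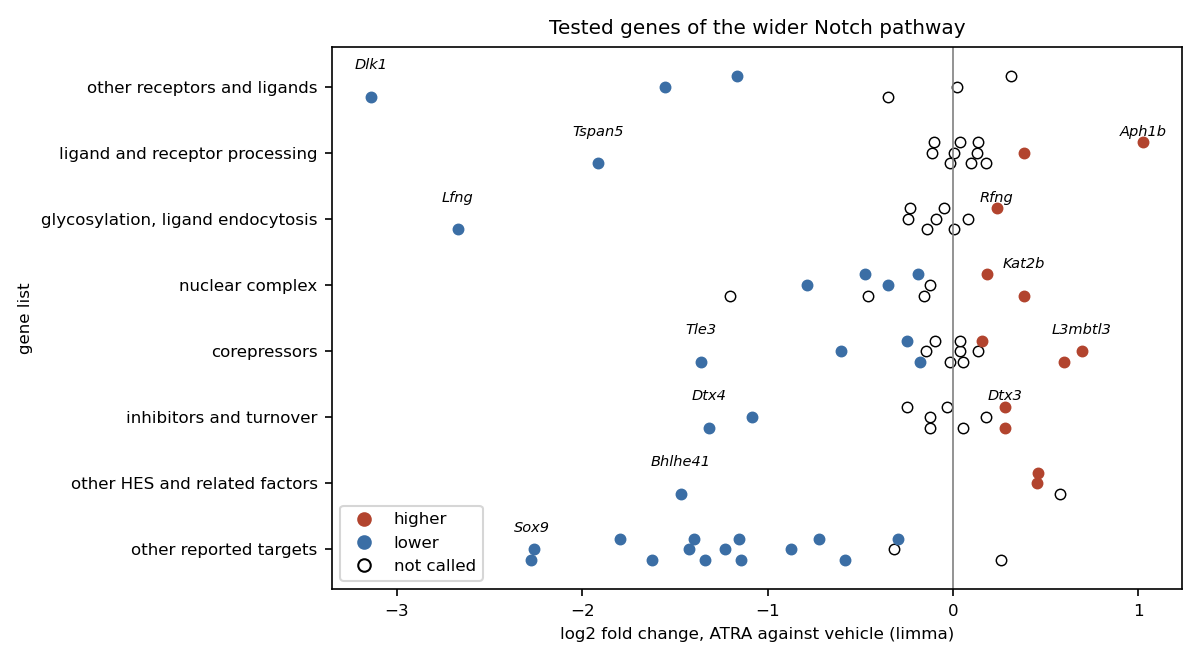
Log2 fold change of ATRA against vehicle (limma) for the 81 tested genes of the wider Notch pathway, grouped by role; red points were higher, blue points lower and open points not called. Lfng and Sox9 are among the largest falls, Dlk1, farthest left, passed the filter through the vehicle libraries alone, and the reported targets lie left of 0 except 1 open point.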

How the data were processed

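Poly(A) RNA of 3 ATRA and 3 vehicle cultures was sequenced. Per the submitters' processing notes, the tools were DESeq2 1.32.0, HTSeq 0.11.2, STAR 2.7.3a and Trim Galore 0.6.4, and the build was mRatBN7.2. The sources used here give no strand setting, annotation release or treatment of multi-mapping reads. The authors deposited a normalised count signal (reads divided by a size factor), FPKM values, and their own log2 fold changes, Wald score and p-values. In each library the normalised counts were whole multiples of 1 step for 100% of values (tolerance 1e-08), so reads were recovered, and FPKM was the normalised count times a constant of the gene.

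The main test was limma 3.58.1 (R 4.3.3) with a trend on log2(normalised count + 1), over genes with at least 10 in at least 3 libraries, with Benjamini-Hochberg adjustment. Fold changes on this scale understate those of low genes. On the recovered reads edgeR 4.0.16 with TMM factors called 2550 genes higher and 2592 lower, and DESeq2 1.42.0 called 2512 higher and 2501 lower. The scripts were tested on simulated data. Other alternatives were pseudocounts, filters, scalings, array weights, the replicate block and each library left out. Shares of FPKM were compared by exact permutation tests over libraries. Intervals and floors of counts cover counting error only. The 10 genes and all lists were chosen with earlier results of these data known. The text names all 10 genes, then Dll1, Notch4, Rbpj, Maml1, Adam10, Lfng, Nrarp and Numb, in each pathway list up to 3 called genes with the smallest p in each direction, and in each marker list the 2 written first, except for items that are not reported here. Any other gene named (Myh7, Pdgfrb, Kdr, Flt1, the pericyte markers and the HES genes at few reads) was picked after its values were seen. Of the listed symbols 5 were not matched. Promoters come from RefSeq for GRCr8, and no coordinate was converted.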

Additional observations from a re-analysis of the deposited data

How the results depend on the processing

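Under 17 alternatives (16 for Hey1, which the stricter filter drops) the 9 tested Notch genes kept the sign of their log2 fold change, and Notch1, Hes1 and Hey2 also kept their call. Leaving out 1 library in turn gave 1 to 5 lower Notch genes, 5 to 15 higher genes of the wider pathway, and 1715 to 3404 higher and 1645 to 3161 lower among all genes. With total reads alone as the scaling the median log2 fold change of all genes moved to -0.104, with 1765 genes higher and 3769 lower, against 2667 higher and 2483 lower in the main result, and 7 pathway genes were higher. Adam10, at 0.0047 in the main result, was -0.0020 with edgeR, -0.0013 with DESeq2, -0.0012 with edgeR and DESeq2 size factors, -0.10 with total reads alone, -0.020 with upper-quartile scaling and -0.014 to 0.041 with a library left out. Cdh5 was 0.0018 with a pseudocount of 0.5 and -0.74 to 0.57 with a library left out. For these the cause was not tested. Whether libraries with the same replicate number shared an isolation is not in the labels. Their deviations from the group means correlated at 0.00041, -0.103 and -0.013, which cannot decide it with 3 libraries a group. With the replicate block 2 Notch genes were higher and 4 lower, and 2302 of all genes were higher and 2135 lower. The limma adjusted p in that fit was 0.068 for Jag2, 0.0049 for Notch3 and 0.055 for Heyl. Depth limits Hey1 and Dll4, read from few counts, and 3 libraries a group cannot give an exact p below 0.1.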

Other observations

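The genes of the VEGF receptors, chosen here after their values were seen, moved in opposite directions among the endothelial markers. Kdr, the main signalling receptor of VEGF, had 960.2, 1098 and 1071 normalised counts in ATRA replicates 1 to 3, against 306, 257 and 294 in vehicle replicates 1 to 3. It was the endothelial marker that rose (1.87 ± 0.09, limma adjusted p = 8.7e-06). Flt1, the decoy receptor of VEGF, had 16.7, 24.3 and 30.4 normalised counts in ATRA replicates 1 to 3, against 182, 184 and 119 in vehicle replicates 1 to 3. It fell 6.61-fold (-2.73 ± 0.27, limma adjusted p = 0.00024). Both calls held in all 17 alternatives, and neither gene overlapped between the groups.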
